A study of Mus musculus with 9 samples.

Results

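The levels of 10 enzyme genes of detoxification and antioxidant defence were followed through 9 mouse RNA sequencing libraries. They are Aldh3a1, Tkt, Gpx1, Gpx2, Gpx3, Gsta4, Gsto1, Nqo1, Txnrd1 and Cat, and they were chosen by name as corneal crystallins and antioxidant enzymes. The choice was made with earlier results of these data known. The table held 56481 gene symbols, and all 10 genes were among the 31906 that had a count in any library. Each of 3 groups had 3 libraries. Primary neural crest cells (pNCC) were taken from E13.5 mouse embryos and kept with 10% fetal bovine serum. Induced cells (iCEC) were made from neural crest cells in a medium holding 5% knockout serum replacement (KSR), 0.1 mM 2-mercaptoethanol and SB431542 at 5 µM, which blocks the type I receptor of TGF-β. That medium was renewed every 2 days, clusters were seen by day 4 and the colonies were studied on day 12. The last group was labelled primary corneal endothelial cells (pCEC) and was also kept with 10% serum. The medium of iCEC thus differed from that of the other groups in its serum and in 2-mercaptoethanol, a thiol reducing agent, as well as in the inhibitor, and these cannot be told apart. Strain, genotype and the day on which RNA was taken were not given in the sources used here, nor whether the libraries of a group came from separate animals or cultures. The p-values therefore measure only the spread between these libraries, which may be technical.

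The cornea must stay transparent while it is exposed to ultraviolet light and oxygen. Its cells hold very large amounts of a few soluble enzymes, called corneal crystallins because they accumulate as the crystallins of the lens do. Aldehyde dehydrogenase 3A1 (Aldh3a1) is the best known of them. It oxidises the aldehydes that arise from peroxidised lipids, and it is a hallmark of the corneal surface epithelium. Transketolase (Tkt), an enzyme of the pentose phosphate pathway, is also abundant in the mouse cornea. That pathway regenerates NADPH, on which glutathione and thioredoxin recycling depend. Glutathione peroxidases (Gpx1, Gpx2, Gpx3), catalase (Cat) and the thioredoxin system (Txnrd1) remove peroxides. Glutathione transferases (Gsta4, Gsto1) and the quinone reductase Nqo1 deal with electrophiles and quinones. Several of these genes are textbook targets of the transcription factor NRF2, which its inhibitor KEAP1 holds down until oxidants or electrophiles arrive.

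Library totals ran from 27389292 counts in pCEC 3 to 47967113 in iCEC 1. All values below are counts scaled to the library total (CPM). The marker genes went against the pCEC label. Krt12, the keratin of the corneal surface epithelium, had 8974, 10428 and 11145 CPM in pCEC 1, 2 and 3. It was at 0 in all libraries of pNCC and in iCEC 1 and 2, and at 0.0298 CPM in iCEC 3. All 15 corneal surface epithelium markers found in the table reached 1 CPM in every pCEC library. Their summed level was 44129 to 56671 CPM in pCEC, 16857 to 24615 in iCEC and 225 to 247 in pNCC, where Krt12 and Muc4 were at 0. The corneal endothelium list of 16 genes summed to 1762 to 2127 CPM in pCEC, 2770 to 2949 in iCEC and 1353 to 1498 in pNCC. Its more defining members, Col8a2 and Slc4a11, had 37.6 to 152.8 and 28.2 to 79.9 CPM in pCEC. In iCEC, Col8a2 had at most 0.119 CPM and Slc4a11 4.17 to 10.7 CPM. The 10 keratocyte and fibroblast markers summed to 27018 to 45978 CPM in pNCC, 122 to 447 in iCEC and 1316 to 9927 in pCEC. Simple epithelial keratins summed to 6.91 to 19.8, 3536 to 4271 and 115 to 191 CPM in the same order. The neural crest list summed to 792 to 1001 CPM in pNCC, 249 to 699 in iCEC and 221 to 323 in pCEC. Over all 9 libraries, skeletal muscle markers reached at most 62.8 CPM, leukocyte markers 58.7, vessel endothelium markers 22.6 and erythroid markers 5.45. The labels name polyA RNA as the molecule except in pCEC 2 and 3, labelled total RNA. In bulk RNA, fewer cells of a type and less RNA per cell cannot be told apart.

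Of the 10 genes, 4 code for selenoproteins, in which a TGA codon is read as selenocysteine instead of as a stop. These stretches are shown because they divide the genes into those whose product needs selenium and those that do not. They were read from the mm10 genome with the GENCODE M21 coding annotation, on the coding strand, and the capitals mark the TGA codon with 12 bases on each side (in Txnrd1 only 6 follow it, 1 codon and the stop). The codon was number 47 of 201 in Gpx1 (chr9:108339451-108339453), 40 of 190 in Gpx2 (chr12:76795256-76795258), 73 of 226 in Gpx3 (chr11:54907256-54907258) and 612 of 613 in Txnrd1 (chr10:82896037-82896039).
Gpx1: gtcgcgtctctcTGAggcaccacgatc
Gpx2: gtggcgtcactcTGAggaacaactacc
Gpx3: gtagccagctacTGAggtctgacagac
Txnrd1: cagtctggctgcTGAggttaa
The codon lies in the first part of the 3 peroxidases and is next to last in Txnrd1. The chosen transcripts of the other 6 genes had 0 TGA codons in frame.

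In the libraries labelled pCEC, Aldh3a1, Tkt, Gsta4 and Gsto1 were among the most abundant transcripts, each ranking 15 or better among all symbols in every library. Together the 10 genes held 4.99%, 5.01% and 5.06% of all counts in pCEC 1, 2 and 3, a mean of 5.02% ± 0.0359 (SD, n = 3). Nearly all of it came from Aldh3a1, Tkt, Gsta4 and Gsto1, which held 4.97%, 5.00% and 5.04%. In iCEC the 10 genes held 2.30% and 2.24% in replicates 1 and 2 but 0.190% in replicate 3. In pNCC they held 0.0781%, 0.0991% and 0.140%. Aldh3a1 ranked 1, 2 and 2 among all symbols in the 3 pCEC libraries, and 3 of the genes stood in the top 10 of each. Gsto1 ranked 1 and 2 in iCEC 1 and 2, and 265 in iCEC 3, where Cat was the most abundant of the 10. The share was thus nearly constant across pCEC and rested on another gene in iCEC.

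**Figure D1:**
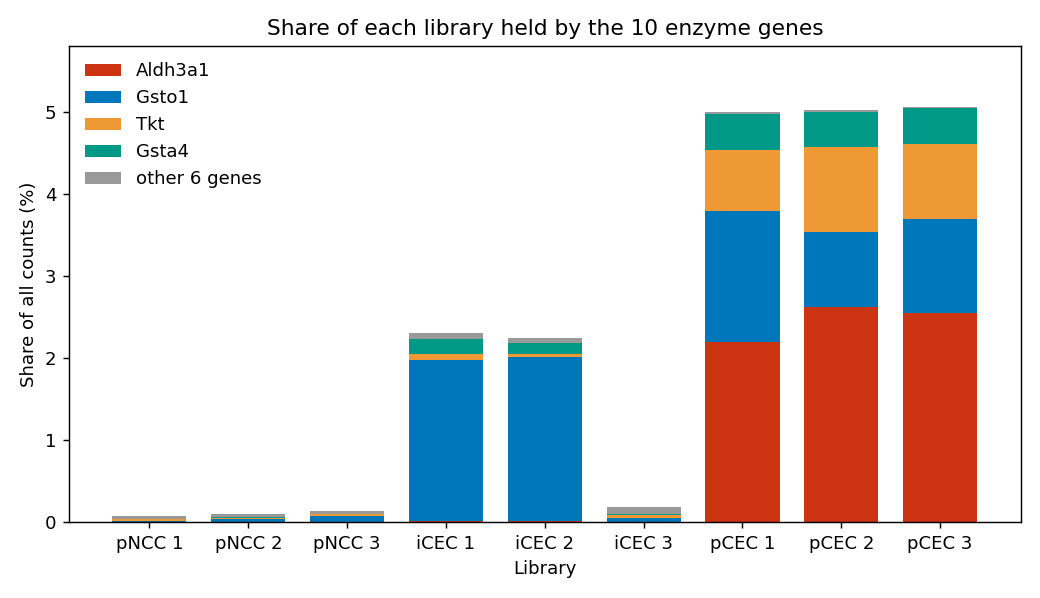
Share of all counts (%) held by the 10 enzyme genes in each of the 9 libraries, stacked by gene, with libraries on the x axis. The pCEC libraries all sit near 5%, iCEC 1 and 2 above 2%, and iCEC 3 at 0.190%.

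**Figure D2:**
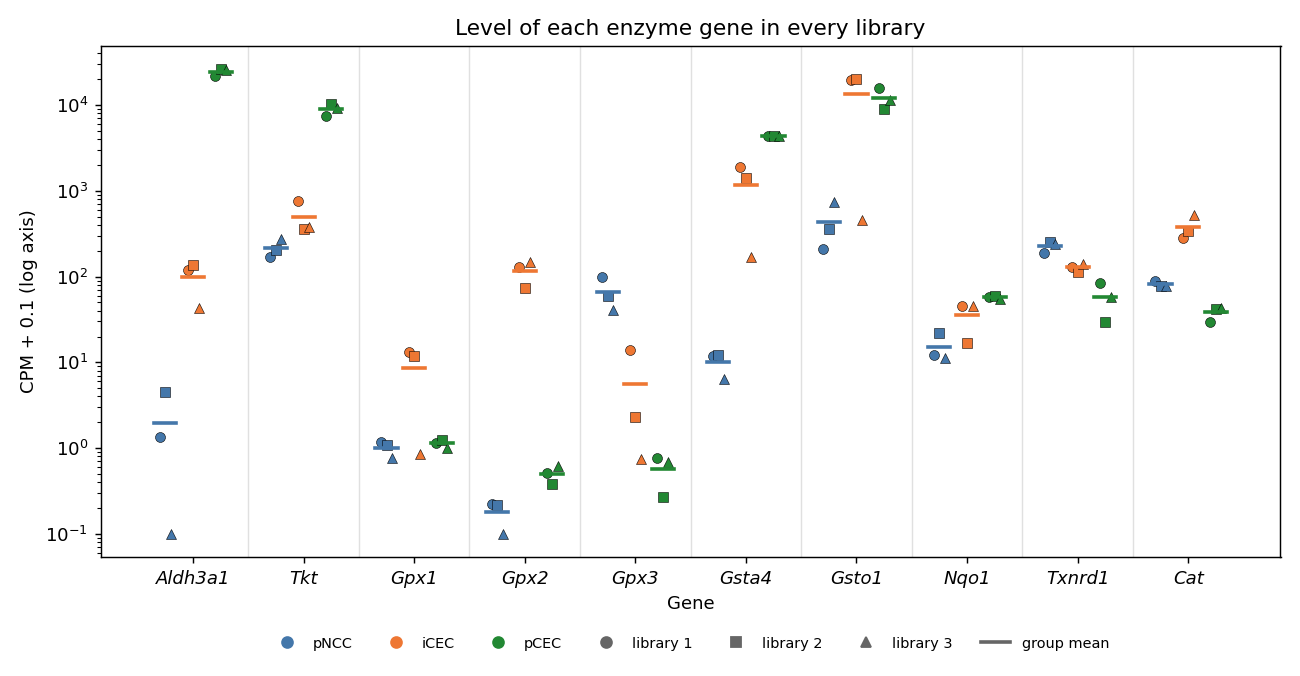
Level of each gene (CPM + 0.1, log axis) in every library, with genes on the x axis and 1 point per library, coloured by group. Aldh3a1, Tkt and Gsta4 are highest in pCEC, Gpx2 and Cat in iCEC, and Gpx3 and Txnrd1 in pNCC.

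The design gives 3 comparisons, namely how iCEC and pCEC each differed from pNCC, and how iCEC differed from pCEC. A gene was called where edgeR's quasi-likelihood test gave a Benjamini-Hochberg adjusted p under 0.05 over all genes tested. In iCEC against pNCC, all 10 genes were tested. Aldh3a1, Gpx2, Gsta4, Gsto1 and Cat rose, Txnrd1 fell, and Tkt, Gpx1, Gpx3 and Nqo1 did not pass. Over all genes 31.3% were called, 16.1% higher and 15.1% lower, and the median log2 fold change was 0.05 against 2.76 for the 10 genes. In pCEC against pNCC, Gpx2 was too low to be tested. Of the other 9, Aldh3a1, Tkt, Gsta4, Gsto1 and Nqo1 rose, Gpx3, Txnrd1 and Cat fell, and Gpx1 did not pass. There 62.5% of all genes were called, 30.3% higher and 32.2% lower, so the 8 calls stand against a background in which most genes passed. The median log2 fold change there was -0.01 over all genes and 2.06 for the 9 tested. The same 3 pNCC libraries served both comparisons. In iCEC against pCEC, Gpx2 and Cat were higher, Aldh3a1 and Tkt were lower, and the other 6 did not pass. Over all genes 20.4% were called, 10.5% higher and 9.92% lower. The median log2 fold change was 0.04 over all genes and 0.56 for the 10.

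The counts of both comparisons with iCEC depended on single libraries. Without iCEC 3, 9 of the 10 genes passed against pNCC (7 higher, 2 lower) and 7 against pCEC (4 higher, 3 lower). Over all genes 7684 of 17297 and 4974 of 17316 were called in these fits. Without pNCC 2 the count of the 10 against pNCC was 3, and 2322 of 17255 over all genes. The calls over all genes thus moved in the same direction. With pCEC 1 as the only pCEC library, the one labelled polyA RNA like the other groups, the 8 calls of pCEC against pNCC were again 5 higher and 3 lower. Against iCEC, edgeR then called 0 of 18806 genes, with 2529 at an unadjusted p under 0.05, 4 of the 10 genes among them. The DESeq2 Wald test on all 6 libraries called 10 of the 10 genes in iCEC against pNCC, 8 in pCEC against pNCC and 8 in iCEC against pCEC. Over all genes it called 6589 of 16293, 10625 of 16608 and 4888 of 16278 in the same order. Gpx2 was again not tested in pCEC against pNCC.

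**Figure D3:**
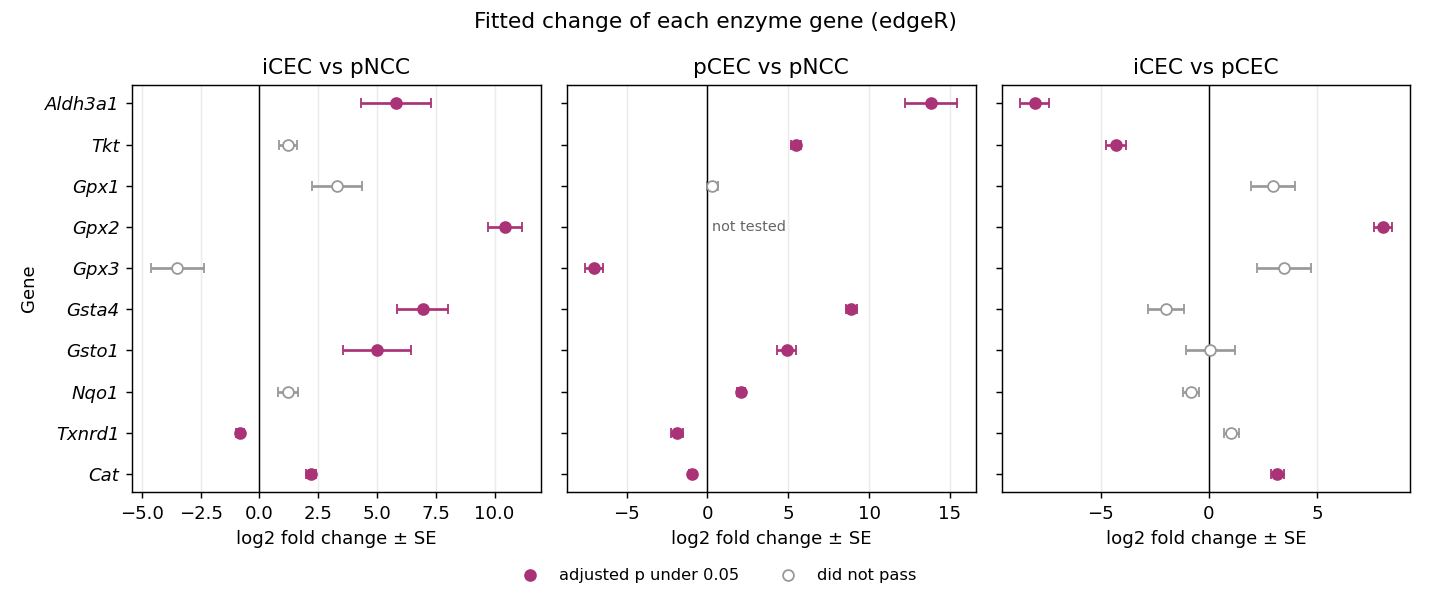
Fitted log2 fold change ± SE of each gene in the 3 comparisons, with genes on the y axis and filled points for an edgeR adjusted p under 0.05. Aldh3a1 lies at 5.81, 13.83 and -8.04 in the 3 panels, and Gpx2 at 10.45 and 8.05 in the 2 panels in which it was tested.

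The crystallin Aldh3a1 (chr11:61207537-61218421, mm10) had 1.24, 4.40 and 0 CPM in pNCC 1, 2 and 3, from 40, 150 and 0 counts. It had 118, 137 and 43.4 CPM in iCEC and 21982, 26256 and 25484 CPM in pCEC. The 3 groups did not overlap, iCEC 3 was the lowest of the induced libraries, and the pCEC libraries lay within 1.19-fold of each other. Against pNCC, Aldh3a1 rose 14556-fold in pCEC (log2 13.83 ± 1.62 SE, edgeR adjusted p = 0.000321) and 56.0-fold in iCEC (log2 5.81 ± 1.50, edgeR adjusted p = 0.0307). These folds rest on very few pNCC counts. Without pNCC 2, which holds most of them, the log2 fold change in pCEC was 15.41, and it was 13.24 without pNCC 3. The call in iCEC was lost without iCEC 1, iCEC 2, pNCC 1 or pNCC 2, with edgeR adjusted p = 0.0646, 0.0660, 0.124 and 0.0553, and with no filter on low counts (edgeR adjusted p = 0.103). The log2 fold change was 7.39 without pNCC 2 and 5.21 without pNCC 3. Between iCEC and pCEC the gene was 263-fold lower in iCEC than in pCEC (log2 -8.04 ± 0.674, edgeR adjusted p = 0.00191). The summed corneal surface epithelium markers were also lowest in pNCC and highest in pCEC, but their single genes were not all so ordered. Krt12, Pax6 and Dsg1a were near 0 in both pNCC and iCEC, at no more than 1.92 CPM, against at least 724 CPM in pCEC. In iCEC the sum came mostly from Krt5 (3745 to 9345 CPM) and Krt14 (5643 to 9293 CPM). Krt14 (353 to 2547 CPM in pCEC), Cdh1 and Epcam were higher in every iCEC library than in any pCEC library. The part of such cells in the result was not tested.

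Transketolase (Tkt, chr14:30548359-30574720) had 167, 207 and 273 CPM in pNCC, 764, 359 and 374 in iCEC, and 7437, 10341 and 9140.1 in pCEC. The groups did not overlap, and iCEC 1 was 2.13-fold above iCEC 2. Tkt rose 45.5-fold in pCEC against pNCC (log2 5.51 ± 0.307, edgeR adjusted p = 9.13e-06). In iCEC its log2 fold change of 1.23 ± 0.393 did not pass (edgeR adjusted p = 0.0590), although without iCEC 3 it did, at 1.43 (edgeR adjusted p = 0.0235). The level in iCEC was 19.6-fold lower than in pCEC (log2 -4.29 ± 0.452, edgeR adjusted p = 0.00309). The same marker values stand beside Tkt, and their part was not tested here either. In the edgeR fit of all 6 libraries, Aldh3a1 and Tkt, the corneal crystallins, were the only 2 of the 10 genes called lower in iCEC than in pCEC. Over all genes 9.92% were called lower. Without iCEC 3, or with the DESeq2 Wald test, 3 of the 10 were lower. Over all genes 4974 of 17316 and 4888 of 16278 were then called in either direction. The iCEC libraries of Gsta4 and Nqo1 also lay below all of their pCEC libraries.

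The glutathione transferase Gsta4 (chr9:78182774-78209349), which conjugates the lipid peroxidation product 4-hydroxynonenal, had 11.7, 12.0 and 6.22 CPM in pNCC. In iCEC it had 1879, 1429 and 167 CPM, and in pCEC 4347, 4318 and 4353. The groups did not overlap, and the pCEC libraries differed by 1.01-fold in CPM while iCEC 3 was 11.2-fold below iCEC 1. Gsta4 rose 479-fold in pCEC (log2 8.90 ± 0.339, edgeR adjusted p = 2.18e-06) and 123-fold in iCEC (log2 6.95 ± 1.08, edgeR adjusted p = 0.00599), both against pNCC. Both calls held with any 1 library left out. Its log2 difference of -1.98 ± 0.816 between iCEC and pCEC did not pass (edgeR adjusted p = 0.140). Without iCEC 3 that difference was smaller, -1.43, and passed (edgeR adjusted p = 0.00557).

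Gsto1 (chr19:47854970-47864790), an omega class transferase that reduces thiol adducts and dehydroascorbate, was the most abundant of the 10 genes in every pNCC library. It had 210.04, 354 and 750.4 CPM there, 19606, 19959.9 and 456 CPM in iCEC, and 15961, 9094 and 11473 CPM in pCEC. The third iCEC library fell inside the pNCC range, while the other two exceeded every pCEC library. Gsto1 rose 29.9-fold in pCEC against pNCC (log2 4.90 ± 0.565, edgeR adjusted p = 0.000299), and without pNCC 3 the log2 fold change was 5.57. In iCEC it rose 32.2-fold (log2 5.01 ± 1.44, edgeR adjusted p = 0.0426). That call rested on few libraries. It was lost without iCEC 1, iCEC 2, pNCC 1, pNCC 2 or pNCC 3, with edgeR adjusted p = 0.0895, 0.0884, 0.143, 0.150 and 0.102. It was also lost with no filter on low counts (edgeR adjusted p = 0.128) and with the replicate number as a block (edgeR adjusted p = 0.240). The log2 fold change was 5.67 without pNCC 3. Without iCEC 3 it was 5.55 (edgeR adjusted p = 0.00153). Between iCEC and pCEC the log2 difference was 0.08 ± 1.12 (edgeR adjusted p = 0.969), and without iCEC 3 it was 0.68 (edgeR adjusted p = 0.117). An SE of 1.12 leaves room for differences of several fold in either direction. The sign was also negative without iCEC 1, iCEC 2 or pCEC 2 (-0.27, -0.33 and -0.10). The gene lies inside the span of Cfap43 on the opposite strand, with 0 shared exon bases.

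The 3 glutathione peroxidases had 3 different patterns. Gpx2 (chr12:76792333-76795554), the epithelial and gastrointestinal enzyme, had 4, 4 and 0 counts in pNCC, and 14, 10 and 14 in pCEC. In iCEC it had 6224, 2672 and 4978 counts, or 129.8, 72.8 and 148 CPM. Every induced library was far above all others, iCEC 3 included. Gpx2 rose 1395-fold against pNCC (log2 10.45 ± 0.737, edgeR adjusted p = 0.000581), a fold that rests on 8 pNCC counts. Against pCEC it was 264-fold higher (log2 8.05 ± 0.414, edgeR adjusted p = 0.000644). Both calls held with any 1 library left out, over log2 ranges of 9.87 to 10.85 and 7.82 to 8.29. Gpx2-ps1, a pseudogene that matches Gpx2 at 98.1% over 572 bases, had 34 counts over all libraries against 13920 for Gpx2. Of the 4 simple epithelial keratins, Krt8 (636, 666 and 2717 CPM in iCEC 1, 2 and 3) and Krt18 (352, 416 and 1395 CPM) were also far higher in every iCEC library than in any other, at most 8.21 CPM. Krt7 and Krt19 were high in iCEC 1 and 2 but had 11.4 and 147 CPM in iCEC 3, within or below the pCEC range. The part of such cells in the result was not tested.

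Gpx3 (chr11:54902453-54910377), the secreted plasma enzyme, was highest in the crest cells. It had 97.7, 59.0 and 40.1 CPM in pNCC, 13.8, 2.18 and 0.655 CPM in iCEC, and 0.658, 0.166 and 0.584 CPM in pCEC. Every pNCC library was above every other library, while iCEC ranged over 21.1-fold, from replicate 1 down to the level of pCEC in replicate 3. Gpx3 was 129-fold lower in pCEC than in pNCC (log2 -7.01 ± 0.540, edgeR adjusted p = 4.58e-05). That fold rests on 22, 6 and 16 counts in pCEC 1, 2 and 3, and iCEC 3 also had only 22. In iCEC the log2 fold change of -3.49 ± 1.13 did not pass (edgeR adjusted p = 0.0612). It passed without iCEC 1, at -5.45 (edgeR adjusted p = 0.0131), and without iCEC 3, at -2.97 (edgeR adjusted p = 0.0319). The log2 difference of 3.48 ± 1.24 between iCEC and pCEC did not pass either (edgeR adjusted p = 0.0985). It was 1.53 without iCEC 1, and 4.04 without iCEC 3 (edgeR adjusted p = 0.0201). The summed keratocyte and fibroblast markers were likewise highest in pNCC, at 27018 to 45978 CPM, but unlike Gpx3 they were higher in pCEC (1316 to 9927 CPM) than in iCEC (122 to 447 CPM). Within that list, Kera and Aldh1a1 were higher in every pCEC library than in any pNCC library. The part of such cells in the result was not tested.

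Gpx1 (chr9:108338903-108340343), the ubiquitous cytosolic enzyme, had only 23 to 41 counts in 7 of the 9 libraries. Its levels were 1.09, 0.997 and 0.657 CPM in pNCC, and 1.05, 1.14 and 0.913 CPM in pCEC. In iCEC 1 and 2 it had 624 and 434 counts, 13.0 and 11.8 CPM, and in iCEC 3 25 counts, or 0.744 CPM. The first 2 induced libraries were thus above all others and the third was among them. None of the 3 log2 fold changes passed: 3.31 ± 1.06 in iCEC against pNCC (edgeR adjusted p = 0.0585), 0.31 ± 0.366 in pCEC against pNCC (edgeR adjusted p = 0.486) and 2.97 ± 1.01 in iCEC against pCEC (edgeR adjusted p = 0.0849). Without iCEC 3 the first and the last passed, at 3.84 (edgeR adjusted p = 0.000638) and 3.55 (edgeR adjusted p = 0.00107). No other annotated transcript matched Gpx1 at 95% or more over at least 150 bases. The counting tool was not given in the sources used here, so the level of Gpx1 is uncertain.

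Nqo1 (chr8:107388225-107403206), which reduces quinones to hydroquinones, had 12.1, 21.8 and 11.2 CPM in pNCC, 45.2, 16.7 and 44.8 in iCEC, and 57.5, 59.7 and 54.1 in pCEC. The pCEC libraries were highest and close to each other. Among the induced libraries iCEC 2 lay within the pNCC range. Nqo1 rose 4.16-fold in pCEC (log2 2.06 ± 0.248, edgeR adjusted p = 0.000322). The values of 1.22 ± 0.428 in iCEC against pNCC (edgeR adjusted p = 0.0773) and -0.83 ± 0.356 in iCEC against pCEC (edgeR adjusted p = 0.153) did not pass, although without iCEC 2 the former did, at 1.52 (edgeR adjusted p = 0.0312).

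Thioredoxin reductase 1 (Txnrd1, chr10:82833951-82897712) keeps thioredoxin reduced with NADPH. Its levels were 191, 254 and 241 CPM in pNCC, 129, 113 and 141 in iCEC, and 84.5, 29.4 and 58.4 in pCEC. All groups were apart. The group means ran in the reverse order of those of Nqo1, whose iCEC and pNCC libraries overlapped. Both genes are known NRF2 targets, and the part of NRF2 was not tested. Txnrd1 was 3.66-fold lower in pCEC than in pNCC (log2 -1.87 ± 0.357, edgeR adjusted p = 0.00325). It was 1.79-fold lower in iCEC (log2 -0.84 ± 0.172, edgeR adjusted p = 0.0140). That call was lost without pNCC 2 or pNCC 3 (edgeR adjusted p = 0.0722 and 0.0651) and in 1 fit of all 9 libraries (edgeR adjusted p = 0.0571). It was also lost with the replicate number as a block (edgeR adjusted p = 0.0682) and with a minimum of 2-fold. The log2 difference of 1.05 ± 0.346 between iCEC and pCEC did not pass (edgeR adjusted p = 0.0796). The polyA-labelled pCEC 1 was the highest of its group.

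Promoters were read for 8 of the 10 genes, as 10 windows from 250 bases before to 50 bases after a start site (RefSeq, GRCm38.p6). Aldh3a1 and Gsta4 had no entry. The core of the antioxidant response element, TGACNNNGC, was searched on both strands and occurred in 12.39% of 32851 promoters. It was found in 1 window, that of an internal start site of Txnrd1, on the opposite strand with its first base 92 before the start. The stretch around it (chr10:82859074-82859162, plus strand) is shown because it holds the single match in these windows, marked in capitals.
Txnrd1: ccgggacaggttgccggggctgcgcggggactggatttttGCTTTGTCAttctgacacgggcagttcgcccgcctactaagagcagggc
The AP-1 site TGACTCA, in 5.2% of all promoters, was in 0 of the 10 windows. A match describes the letters only, and counts per gene do not separate the start sites of Txnrd1. The lack of a match covers these windows only, since sequence further from the start sites was not searched.

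Catalase (Cat, chr2:103453849-103485160), the peroxisomal enzyme that splits hydrogen peroxide, varied least between the induced libraries among the 5 genes that rose there, by 1.84-fold. It had 88.5, 78.1 and 77.7 CPM in pNCC, 285, 337 and 524 in iCEC, and 29.1, 42.4 and 43.4 in pCEC. No groups overlapped, and iCEC 3, low for Gsto1, Gsta4 and Gpx1, was here the highest of all. Cat rose 4.63-fold in iCEC (log2 2.21 ± 0.214, edgeR adjusted p = 0.00140) and fell by 0.95 ± 0.189 on the log2 scale in pCEC (edgeR adjusted p = 0.00356), both against pNCC. It was 8.99-fold higher in iCEC than in pCEC (log2 3.17 ± 0.315, edgeR adjusted p = 0.00273). These 3 calls held with any 1 library left out.

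Levels of different genes were compared per kilobase of merged exons. In pCEC the order was Aldh3a1 with 12654 ± 1173 CPM per kb (SD, n = 3), Gsto1 with 6019 ± 1724, Gsta4 with 3428 ± 14.8 and Tkt with 1220 ± 198 (SD, n = 3). The next gene, Nqo1, had 36.8 ± 1.83, and Cat, Txnrd1, Gpx1, Gpx3 and Gpx2 followed. Cat and Txnrd1 overlapped in their libraries there, as did Gpx3 and Gpx2. In iCEC the order began with Gsto1, Gsta4, Cat and Tkt, at 6594, 915, 146 and 67.9 CPM per kb. Aldh3a1 came next with 51.3 ± 25.5, before Gpx2, Nqo1, Txnrd1, Gpx1 and Gpx3. Of these neighbours only Cat and Tkt, and Txnrd1 and Gpx1, had ranges that did not overlap. In pNCC, Gsto1 led with 217 ± 138 CPM per kb, and Gpx3, Txnrd1, Cat and Tkt followed at 36.2, 32.3, 31.2 and 29.3, each overlapping its neighbour. Nqo1, Gsta4, Aldh3a1, Gpx1 and Gpx2 came last, from 9.71 down to 0.0250 CPM per kb. Tkt depends on the length used, since its merged exons span 7355 bases and its transcripts average 1695. Per kilobase of mean transcript it had 5294 ± 861 in pCEC, above Gsta4 with 5046 ± 21.8 but within its own spread. It took place 2 in pNCC and 3 in iCEC. Places of other genes moved too with that length. Txnrd1 came before Cat in pCEC and before Nqo1 in iCEC. In pNCC, Gpx3 took place 4, and Gsta4 came before Nqo1.

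The other genes of the same pathways were counted on lists of 12 to 26 genes, against the shares of all genes called in each comparison (31.3%, 62.5% and 20.4%). Calls over all genes also moved with 1 library left out. In iCEC against pNCC, 5093 became 4425, 4623 and 7684 without iCEC 1, 2 and 3. They became 2523, 2322 and 2698 without pNCC 1, 2 and 3. In iCEC against pCEC, 3327 became 2456, 3115 and 4974 without iCEC 1, 2 and 3. They became 1353, 1131 and 1138 without pCEC 1, 2 and 3. In the pentose phosphate pathway, in which Tkt acts, 5 of 10 tested genes rose and 0 fell in iCEC against pNCC, with a median log2 fold change of 0.99 against 0.05 over all genes. Taldo1, the transaldolase that works beside transketolase, had 613 ± 61.7 CPM in iCEC and 112 ± 7.91 in pNCC and rose 5.54-fold (edgeR adjusted p = 0.000892). Rpia, which isomerises ribose 5-phosphate, rose 2.96-fold (edgeR adjusted p = 0.00423). In pCEC 6 of the 10 rose and 2 fell. G6pdx, which makes the first NADPH of the pathway, rose 4.06-fold there to 309 ± 23.8 CPM (edgeR adjusted p = 0.000141), and H6pd, its counterpart in the endoplasmic reticulum, fell by 1.86 on the log2 scale (edgeR adjusted p = 1.04e-05). Between iCEC and pCEC 1 of the 10 passed, Rpia, lower in iCEC. The count of 5 in iCEC against pNCC was 3 without iCEC 1 or pNCC 1 and 2 without pNCC 2 or pNCC 3. The 1 call between iCEC and pCEC became 3 without iCEC 2 or iCEC 3 and 0 without any 1 pCEC library.

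Among other aldehyde dehydrogenases and enzyme-crystallins, 5 of 23 tested genes rose and 4 fell in iCEC, 9 of 23 rose and 8 fell in pCEC, both against pNCC, and 5 of 22 were higher and 2 lower in iCEC than in pCEC. Aldh1a1, a retinaldehyde dehydrogenase and a corneal crystallin of some species, had 249 ± 179 CPM in iCEC, 235 ± 46.6 in pCEC and 1.14 ± 0.606 in pNCC (SD, n = 3). It rose 215-fold in iCEC (edgeR adjusted p = 0.00284) and 225-fold in pCEC (edgeR adjusted p = 1.15e-05), and the log2 fold change in iCEC of 7.75 was 7.07 without iCEC 1. Aldh3b2, a relative of Aldh3a1, had 295 ± 27.0 CPM in pCEC and 0.100 ± 0.0940 in pNCC, with a log2 fold change of 11.62 (edgeR adjusted p = 4.47e-06) that was 12.33 without pNCC 1 and 11.02 without pNCC 2. The mitochondrial folate enzyme Aldh1l2 went the other way, 488-fold lower in pCEC than in pNCC (edgeR adjusted p = 1.51e-06). Of the list of other cytoprotective redox enzymes (carbonyl, alcohol and xenobiotic metabolism), 3 of 15 rose and 0 fell in iCEC, 9 rose and 5 fell in pCEC, and 4 were higher and 3 lower in iCEC than in pCEC. Adh7, an alcohol dehydrogenase of epithelia that acts on retinol, had 1172 ± 157 CPM in pCEC and 5.09 ± 7.43 in iCEC, and its log2 difference of -8.06 (edgeR adjusted p = 0.0126) was -10.54 without iCEC 3. The dehydrogenase list had 15 calls in place of 9 in iCEC against pNCC without iCEC 3. Against pCEC its 7 calls fell to 4, 3, 1 and 2 without iCEC 1, pCEC 1, pCEC 2 and pCEC 3. The cytoprotective redox list had 10 calls in place of 3 in iCEC against pNCC without iCEC 3 and 1 without pNCC 1 or pNCC 2, and 4 in place of 7 in iCEC against pCEC without any 1 pCEC library.

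Of the other glutathione transferases, 4 of 19 tested rose and 0 fell in iCEC, and 10 of 21 rose and 5 fell in pCEC, both against pNCC. Gsta3 had 367 ± 271 CPM in iCEC, 123 ± 22.7 in pCEC and 0.519 ± 0.325 in pNCC. Its log2 fold change was 9.50 in iCEC (edgeR adjusted p = 0.00175), or 8.74 without iCEC 1, and the gene rose 256-fold in pCEC (edgeR adjusted p = 6.85e-06). Gsta2 was at 0 in all pNCC libraries and at 95.1 ± 9.01 CPM in pCEC, at least 1069-fold higher when each pNCC library is set to 3 counts. Alpha class transferases are close relatives, and how reads shared between them were counted was not given in the sources used here. The microsomal enzyme Mgst1 was 39.5-fold lower in pCEC than in pNCC (edgeR adjusted p = 5.22e-06) and 30.9-fold higher in iCEC than in pCEC (edgeR adjusted p = 0.00153). Between iCEC and pCEC 3 of 21 were higher and 1 lower. For glutathione synthesis and the other peroxidases, 4 of 15 rose and 3 fell in iCEC, 3 of 14 rose and 7 fell in pCEC, and 2 of 15 were higher and 2 lower in iCEC than in pCEC. Gss, glutathione synthetase, rose 5.75-fold in iCEC (edgeR adjusted p = 0.00333) and 3.34-fold in pCEC (edgeR adjusted p = 1.86e-05). Gpx7, a peroxidase of the endoplasmic reticulum, fell from 60.7 ± 1.14 CPM in pNCC to 0.169 ± 0.0949 in iCEC (edgeR adjusted p = 0.000457) and 1.11 ± 0.454 in pCEC (log2 -5.64, edgeR adjusted p = 1.09e-05, or -6.62 with pCEC 1 as the only pCEC library). The 4 transferase calls in iCEC against pNCC became 9 without iCEC 3 and 2 without any 1 pNCC library, and those against pCEC 11 without iCEC 3. The 7 calls of the glutathione synthesis list in iCEC against pNCC became 3 without any 1 pNCC library, and the 4 against pCEC became 7 without iCEC 3 and 2 without any 1 pCEC library.

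On the NRF2 list, 5 of 23 tested genes rose and 3 fell in iCEC, and 8 rose and 10 fell in pCEC, against pNCC. The gene of NRF2 itself, Nfe2l2, had 145 ± 8.22 CPM in pNCC, 183 ± 33.5 in iCEC and 123 ± 2.78 in pCEC, and none of its 3 log2 fold changes (0.34, -0.11 and 0.45 for iCEC against pNCC, pCEC against pNCC and iCEC against pCEC) passed, with edgeR adjusted p = 0.193, 0.397 and 0.145. Keap1 had 53.0 ± 1.70, 54.2 ± 11.4 and 71.8 ± 9.42 CPM, and rose by 0.57 ± 0.140 on the log2 scale in pCEC against pNCC (edgeR adjusted p = 0.00918). That call was lost in 1 fit of all 9 libraries (edgeR adjusted p = 0.0727) and with pCEC 1 as the only pCEC library, at 0.24 (edgeR adjusted p = 0.170). The called genes of the list went in both directions against pNCC, and the part of NRF2 was not tested. Osgin1, an oxidative stress growth inhibitor, rose 23.6-fold in iCEC (edgeR adjusted p = 0.00394) and 39.5-fold in pCEC (edgeR adjusted p = 7.48e-06). Hmox1, heme oxygenase 1, had 191 ± 11.6 CPM in pNCC and 47.7 ± 9.98 in iCEC, 3.98-fold lower (edgeR adjusted p = 0.00141). The cystine transporter gene Slc7a11 was 38.7-fold lower in pCEC than in pNCC (edgeR adjusted p = 1.68e-05), and Ftl1, the ferritin light chain, 9.24-fold lower (edgeR adjusted p = 2.19e-05). Between iCEC and pCEC 10 of 23 were higher and 1 lower, with a median log2 difference of 0.83 against 0.04 over all genes. Slc7a11 was 69.1-fold higher in iCEC there (edgeR adjusted p = 0.00249), and Me1, malic enzyme 1, had 115 ± 9.54 CPM in iCEC against 10.2 ± 3.47 in pCEC, 10.2-fold higher (edgeR adjusted p = 0.00284). The 8 calls of this list in iCEC against pNCC were 4 without pNCC 1 or pNCC 2 and 3 without pNCC 3, and the 11 against pCEC were 7 without iCEC 1 and 5 without any 1 pCEC library.

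Of the thioredoxins, peroxiredoxins and superoxide dismutases, 1 of 26 rose and 3 fell in iCEC, and 6 rose and 10 fell in pCEC, against pNCC, while 6 were higher and 3 lower in iCEC than in pCEC. Prdx5, a peroxiredoxin of mitochondria and peroxisomes, rose 4.36-fold in pCEC (edgeR adjusted p = 7.05e-05). Prdx4, its relative in the endoplasmic reticulum, was 11.1-fold lower there (edgeR adjusted p = 1.00e-05) and 4.12-fold lower in iCEC (edgeR adjusted p = 0.0116). Prdx6 had 740.2 ± 73.3 CPM in pCEC and 219 ± 62.6 in iCEC, 3.67-fold lower in iCEC (edgeR adjusted p = 0.00961). Of the selenoprotein list, 1 of 23 rose and 2 fell in iCEC, 8 rose and 10 fell in pCEC, and 3 were higher and 2 lower in iCEC than in pCEC. Selenon, a selenoprotein of the endoplasmic reticulum, was 10.1-fold lower in iCEC (edgeR adjusted p = 0.000395) and 15.2-fold lower in pCEC (log2 -3.93, edgeR adjusted p = 8.43e-05) than in pNCC, and the log2 value in pCEC was -4.88 with pCEC 1 alone. Of the peroxisome list, beside the higher Cat, 4 of 24 rose and 2 fell in iCEC, 10 rose and 5 fell in pCEC, and 1 was higher and 1 lower in iCEC than in pCEC. Pex26, which anchors the import machinery of peroxisomes, rose 3.63-fold in iCEC (edgeR adjusted p = 0.00212) and 3.33-fold in pCEC (edgeR adjusted p = 4.52e-05).

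The counts of these last 3 lists also moved in both comparisons of iCEC, as did the calls over all genes given above. In pCEC against pNCC no list's count moved by over 1.5 times with 1 library left out. In iCEC against pNCC without iCEC 3, the thioredoxin list had 9 calls in place of 4, the selenoprotein list 13 in place of 3 and the peroxisome list 11 in place of 6. Without any 1 pNCC library the first 2 lists had 1 call each, and the peroxisome list had 3, 2 and 3. In iCEC against pCEC the 9 thioredoxin calls became 3, 2 and 2 without pCEC 1, 2 and 3. The 5 selenoprotein calls became 0, 3 and 9 without iCEC 1, 2 and 3, and 1, 0 and 0 without pCEC 1, 2 and 3. The 2 peroxisome calls became 1 without iCEC 1, pCEC 1 or pCEC 2 and 0 without pCEC 3. With pCEC 1 as the only pCEC library, the selenoprotein list had 10 calls in place of 18 against pNCC, and no list had a call against iCEC.

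**Figure D4:**
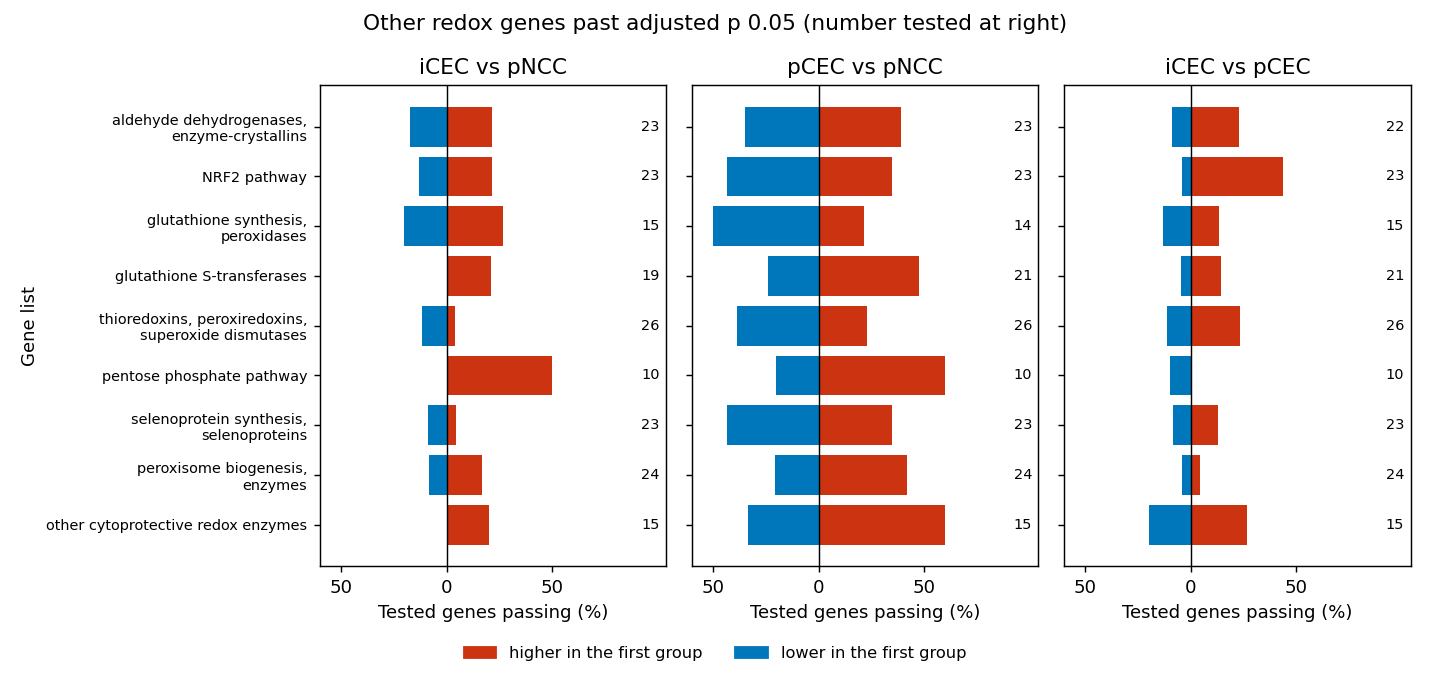
Percent of the tested genes of each list that passed an edgeR adjusted p under 0.05 in the 3 comparisons, higher to the right of 0 and lower to the left, with lists on the y axis and the number tested at the right. The bars are longest in pCEC against pNCC, where 62.5% of all genes passed.

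Genes with a pattern like that of Aldh3a1, Tkt and Nqo1 were named as a description, by the smallest root mean square distance of centred log2 CPM over the 9 libraries, among 10135 genes with a mean of at least 10 CPM. For Aldh3a1 the closest were Slurp1, Ly6g6c, Dapl1, Tmprss11a and Gpr15lg, at distances of 1.98 to 2.13. Slurp1, a secreted protein of the ocular surface, had 1187 ± 222 CPM in pCEC, 3.31 ± 3.06 in iCEC and 0 in every pNCC library. Genes at 0 in pNCC have no true fold there, which enters these distances through the prior count of 2. Tkt had much closer companions, Stk35 at 0.391, Syk at 0.491, Cmah at 0.505, Perm1 at 0.520 and Svip at 0.550. Stk35, a serine/threonine kinase, had 32.0 ± 1.50 CPM in pNCC, 42.8 ± 14.2 in iCEC and 1012 ± 83.8 in pCEC. Nqo1 was closest to Ptk2b, Cav2, Atmin, Ank and Rreb1, at 0.322 to 0.372. Ptk2b, a relative of focal adhesion kinase, had 14.2 ± 3.71, 38.2 ± 9.33 and 66.5 ± 7.56 CPM in the same order of groups.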

How the data were processed

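The deposited values are raw counts, whole numbers by gene symbol in 9 libraries, with no normalization by the authors. Reads of 150 bases were paired, from NEBNext Ultra libraries, per the labels' protocols. Per the submitters' processing notes, mm10 and edgeR were used. The role and version of edgeR, the aligner, the counter, its use of strand and the annotation were not given in the sources used here. Groups and replicate numbers came from the sample titles, and 0 columns were left unmapped. CPM is the usual scaling of a count to the library's raw total, without TMM factors. Over all 9 libraries these were 0.9998, 0.9081 and 0.8706 in pCEC 1, 2 and 3 and 1.197 in iCEC 3. Closeness between libraries is therefore given in CPM only.

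Each comparison was fitted on its own 6 libraries in R 4.3.3 with edgeR 4.0.16 (filterByExpr, TMM, robust quasi-likelihood, 2-sided, Benjamini-Hochberg over all genes tested). SE was taken as the log2 fold change over the square root of the F statistic, without its sign. A group at 0 was set to 3 counts per library for a bound. Alternatives were DESeq2 1.42.0, its size factors in edgeR, other filters, 1 fit of all 9 libraries, a replicate block, a minimum of 2-fold, leaving out each library, and pCEC 1 alone. With pCEC 1 alone, its spread was assumed to be that of the other group. The fit was tested on simulated data.

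The 10 genes, the pathway lists and the marker lists were chosen with earlier results of these data known. Named pathway genes came from up to 4 called genes per list and comparison with the smallest adjusted p, and those printed are examples of them. Positions came from GENCODE M21. Tables and figures used Python 3.11.15, numpy 2.4.6, pandas 2.3.3 and matplotlib 3.10.9.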

Additional observations from a re-analysis of the deposited data

How the results depend on the processing

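Calls in pCEC against pNCC were the most stable. Of the 10 enzyme genes, 8 passed with any 1 library left out and 7 with a minimum of 2-fold. The count over all genes ran from 9207 to 10687 with 1 library left out and was 7397 with a minimum of 2-fold. In 1 fit of all 9 libraries 9 passed, and 8306 over all genes. The added call was Gpx2, too low to be tested in the main fit. Gpx2 entered the fit of all 9 through the iCEC libraries, and had 4, 4 and 0 counts in pNCC and 14, 10 and 14 in pCEC. In iCEC against pNCC, the 6 calls became 10 with the DESeq2 Wald test, 9 in 1 fit of all 9 libraries and 3 to 9 with 1 library left out. The 5093 calls over all genes became 6589, 6461 and 2322 to 7684 in the same order. In iCEC against pCEC, the 4 calls became 8 with DESeq2, 7 in 1 fit of all 9 libraries, 4 to 7 with 1 library left out, and 0 with pCEC 1 alone. The 3327 calls over all genes there became 1131 to 4974 with 1 library left out and 0 with pCEC 1 alone. The cause was not tested, beyond the fewer libraries of these fits. Over all genes in iCEC against pCEC, DESeq2 called 4888, and 1 fit of all 9 libraries called 4972. With the replicate number as a block, all genes called were 2864 in iCEC against pNCC, 9777 in pCEC against pNCC and 1295 in iCEC against pCEC. Of the enzyme genes, 5, 8 and 4 passed in the 3 comparisons. The numbers did not pair the libraries: correlations of same-numbered deviations ran from -0.1808 to 0.0714. The sign of Gsto1 between iCEC and pCEC, 0.08 on the log2 scale, was negative with pCEC 1 alone (-0.22), with the block (-0.73), and without iCEC 1 (-0.27), iCEC 2 (-0.33) or pCEC 2 (-0.10). It was 0.68 without iCEC 3, never with a call. DESeq2 size factors moved the median log2 fold change of all genes by -0.05, 0.03 and -0.03 in the 3 comparisons. Low counts limit the values of Gpx1 outside iCEC 1 and 2, Gpx2 outside iCEC, Gpx3 in pCEC and iCEC 3, and Aldh3a1 in pNCC.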
